A study of Homo sapiens with 15 samples.

Results

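Transcripts of 10 genes of bone morphogenetic protein (BMP) signalling and iron handling were followed in HepG2 cells, an established human liver cancer line, after depletion of the chromatin remodelling ATPases BRG1 and BRM. The genes were BMP6, BMP4, ID1, ID2, ID3, SMAD6, HAMP, TFR2, TFRC and SLC40A1. They were chosen by symbol, and the choice was made on their measured levels across the 4 groups, so that the group differences below are given as descriptions and without p-values. All 10 were among the 35012 gene symbols of the deposited count table, and all 10 passed the filter on low counts that left 14621 genes for testing. RNA was sequenced from cells given lentiviral short hairpin RNAs against BRG1 (4 libraries), against BRM (3), against both (double, 4), or a non-silencing hairpin (NS, 4). Every group, NS included, received lentivirus with polybrene and puromycin selection and was harvested 5 days after transduction. How many hairpins were used per target is not given in the sources used here. Whether replicates were separate cultures is not stated in the labels, so the p-values below reflect only the variation among these samples, and that variation could be technical.

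In the liver, BMP ligands bind receptor complexes on hepatocytes, which phosphorylate the carrier proteins SMAD1, SMAD5 and SMAD9. These join SMAD4 and switch on HAMP, the gene of the iron hormone hepcidin, together with general BMP targets such as the ID genes and the inhibitor SMAD6. Hepcidin in turn causes the iron exporter ferroportin, the product of SLC40A1, to be degraded or blocked. In mouse liver, BMP6 comes chiefly from sinusoidal endothelial cells and rises with iron load, while in hepatocytes transferrin receptor 2 (TFR2) acts as a sensor of iron-loaded transferrin.

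The hairpins lowered their targets. SMARCA4, which encodes BRG1, averaged 27.8 ± 2.32 CPM (counts scaled to library size; SD, n = 4) in BRG1 libraries and 46.2 ± 6.09 (SD, n = 4) in double libraries, against 307 ± 6.99 (SD, n = 4) in NS libraries. SMARCA2, which encodes BRM, averaged 4.38 ± 2.22 CPM (SD, n = 3) in BRM libraries and 2.57 ± 0.299 (SD, n = 4) in double libraries, against 39.2 ± 4.05 (SD, n = 4) in NS libraries. BRG1 libraries also held less SMARCA2, at 25.8 ± 3.64 CPM (SD, n = 4), below every NS library. That log2 fold change was -0.61 ± 0.23, not called in edgeR, called with the replicate number as a block (-0.60) and called in the authors' deposited table. Total counts per library ran from 11500149 to 27187991. Within each group, numbers 1 and 2 formed one set of libraries and numbers 3 and 4 another. Mitochondrially encoded transcripts, for example, took 4.97 to 8.33% of counts in the 8 libraries numbered 1 and 2 and 1.33 to 3.55% in the other 7. The labels do not say what a replicate number shares, so values are also given within each set. This split was seen in these same libraries, and the genes followed were chosen on their levels in them. Adjusted p-values of differences between sets are therefore descriptions and not tests.

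Of the 8 hepatocyte markers, such as ALB and APOA1, all averaged at least 1 CPM over all libraries. Their summed level was 5451 to 18353 CPM in BRG1 libraries, 48533 to 52407 in BRM libraries, 10820 to 24855 in double libraries and 23714 to 36822 in NS libraries, so the level of hepatocyte transcripts differed between the groups. Relative to NS, 0 of these markers rose and 6 fell after BRG1 depletion (edgeR, adjusted p under 0.05). After BRM depletion 1 rose and 1 fell, and in double libraries 0 rose and 3 fell. Of all genes, 22.5%, 13.9% and 21.6% were called in these comparisons. In bulk RNA, fewer cells of a kind and less RNA per cell cannot be told apart. The part of this difference in the results on liver-made iron proteins was not tested.

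**Figure D1:**
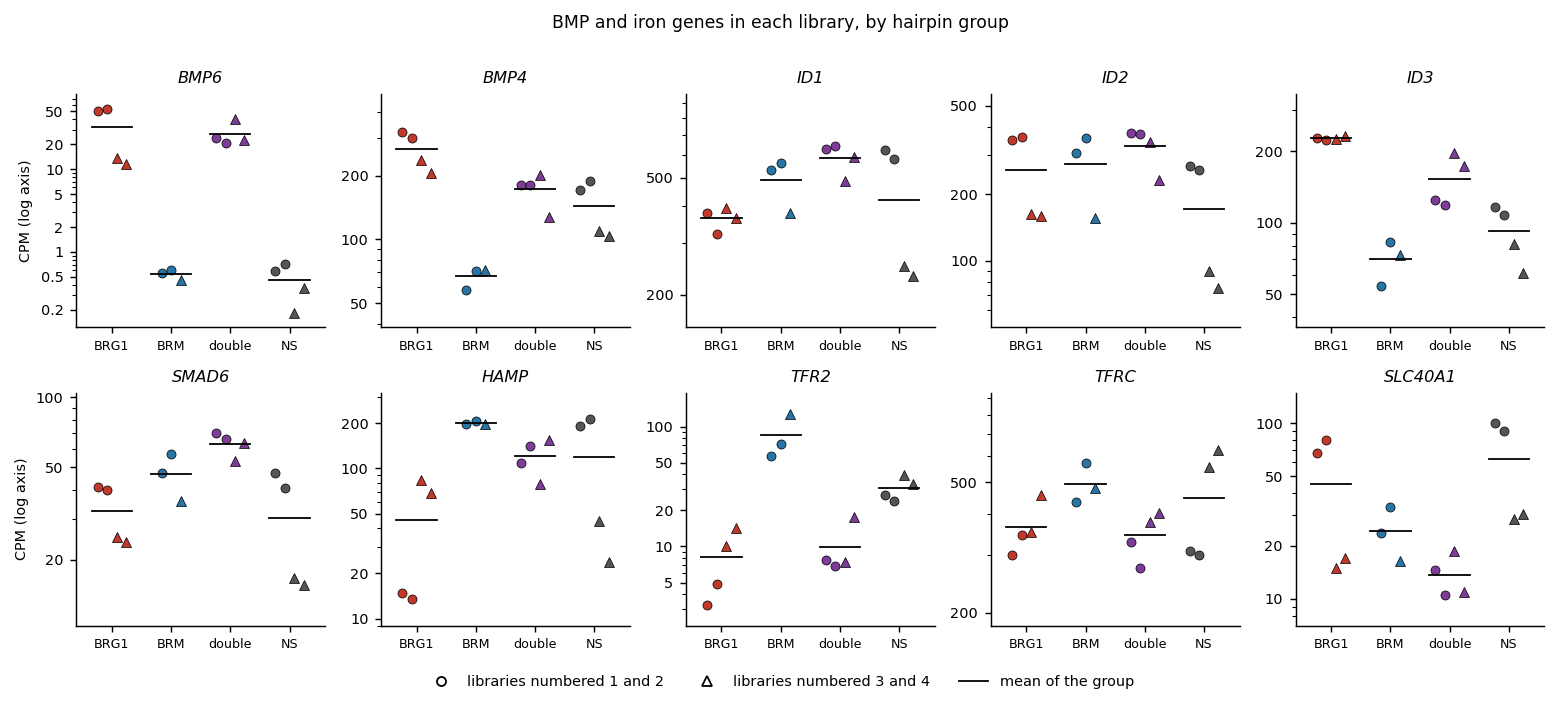
Level of each of the 10 genes in CPM (log axis) in every library of the BRG1, BRM, double and NS groups, with circles for libraries numbered 1 and 2, triangles for those numbered 3 and 4 and a line at the group mean. BMP6 lies between 11.55 and 53.2 CPM in all BRG1 and double libraries and at or under 0.721 CPM in all BRM and NS libraries.

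Against NS, 4 of the 10 genes were called (adjusted p under 0.05 in edgeR over all genes) after the BRG1 hairpin, against a background of 22.5% of all genes tested. BMP6, BMP4 and ID3 were higher and TFR2 was lower, where 12.5% of all genes were called higher and 9.97% lower. After the BRM hairpin 2 genes were called, TFR2 higher and BMP4 lower, beside 13.9% of all genes, of which 7.66% were higher and 6.26% lower. In double libraries 5 genes were called, with BMP6, ID3 and SMAD6 higher and TFR2 and SLC40A1 lower. The background there was 21.6%, made up of 11.8% higher and 9.9% lower. The median log2 fold change of the 10 genes was -0.05 for BRG1, 0.21 for BRM and 0.37 for double, beside medians over all genes of 0.02, 0.03 and 0.02. The 3 comparisons share the same NS libraries, and since the genes were selected on these differences, nothing is read from the counts.

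With the replicate number as a block, 5 of the 10 genes were called after BRG1 depletion (background 36.4%) and 6 in double libraries (background 35.6%), ID2 being the added gene in both. Same-numbered libraries of these groups deviated together and were taken to pair. Only same-numbered libraries were compared, so this does not separate pairing by number from the split between the sets. In the deposited comparison tables of the authors the calls against NS were 4, 2 and 5 of the 10 genes for BRG1, BRM and double, and each was also a call here.

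BMP6 encodes the ligand with the leading role in the control of hepcidin by iron. Its gene lies on chromosome 6 at 7726797 to 7881422 (GRCh38, plus strand). BMP6 stood at 50.6, 53.2, 13.5 and 11.55 CPM in BRG1 libraries 1 to 4 and at 23.6, 20.5, 39.7 and 22.3 CPM in double libraries. It stood at 0.564, 0.600 and 0.461 CPM in BRM libraries and at 0.583, 0.721, 0.184 and 0.372 CPM in NS libraries. Every library with the BRG1 hairpin was thus above every library without it, and the BRM hairpin alone left the transcript in the range of NS. The log2 fold change was 6.07 ± 0.59 (standard error) for BRG1, 5.80 ± 0.59 for double and 0.19 ± 0.70 for BRM. NS libraries held only 12, 9, 2 and 8 counts of BMP6, against 235 to 1283 counts in BRG1 libraries, so the exact size of the fold rests on few counts in NS.

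The order of BMP6 between BRG1 and double libraries depended on the replicate set. Among libraries numbered 1 and 2 the double level was lower than the BRG1 level (log2 fold change -1.23), and among those numbered 3 and 4 it was higher (1.31). This difference between sets was -2.54 on the log2 scale (adjusted p = 0.00153, edgeR interaction of group and set). It stood beside 3.86% of all genes with such a difference. As for the other genes followed here, this p-value is a description, since gene and split were both picked from these data. Over all libraries the double minus BRG1 log2 fold change was -0.28 ± 0.44.

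BMP6 in the liver is known from endothelial cells, so markers of other liver cell types were read beside it. The 8 endothelial markers summed to 32.0 to 46.1 CPM in BRG1 libraries, 5.88 to 12.1 in BRM, 16.7 to 34.5 in double and 9.11 to 10.8 in NS libraries. KDR, CLEC4G and FCN3 averaged under 0.1 CPM over all libraries. In BRG1 and double libraries the sum followed LYVE1, a hyaluronan receptor. LYVE1 stood at 31.6 ± 6.15 CPM (SD, n = 4) in BRG1 libraries, against 4.43 ± 0.762 CPM (SD, n = 4) in NS libraries. It rose in BRG1 libraries relative to NS by a log2 fold change of 2.84 ± 0.29 (adjusted p = 1.96e-05, edgeR). PECAM1, a general endothelial marker, had a log2 fold change of 0.09 ± 0.23 in that comparison (adjusted p = 0.825). In double libraries, of 4 endothelial markers tested, 1 rose and 1 fell, beside 21.6% of all genes called. LYVE1 was at 2.01 there and PECAM1 at -0.70 (edgeR adjusted p = 0.0414, lost without NS library 2, 3 or 4 or double library 1, 2 or 4). In BRM libraries LYVE1 fell (-1.30), a call lost without BRM library 1. The 6 stellate and stromal markers summed to 62.0 to 248 CPM in BRG1 and 16.8 to 33.7 in BRM libraries. They summed to 23.7 to 43.1 CPM in double and 34.9 to 75.8 in NS libraries. COL3A1 averaged under 0.1 CPM over all libraries. Of the 3 stromal markers tested, 0 were called in any comparison with NS. Their median log2 fold change was 0.0065 for BRG1, -1.29 for BRM and -0.41 for double. The 5 macrophage markers summed to 30.9 to 58.8 CPM in BRG1 and 55.0 to 75.2 in BRM libraries. In double libraries they summed to 52.7 to 93.8 CPM and in NS libraries to 28.97 to 41.2. CD68 was the 1 macrophage marker averaging at least 1 CPM over all libraries, and MARCO and CSF1R averaged under 0.1 CPM. All libraries are of the HepG2 line, so these sums describe marker transcripts and are not a count of other cell types. Their relation to the BMP6 result was not tested.

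BMP4, a second ligand of the same receptor branch (chromosome 14, 53949736 to 53958761, minus strand), went opposite ways after the single hairpins. It had 322, 301, 237 and 206 CPM in BRG1 libraries, 57.8, 71.4 and 72.1 CPM in BRM libraries, 180.0, 181, 200.3 and 128 CPM in double libraries and 172, 189, 109.9 and 104 CPM in NS libraries. All BRG1 libraries lay above all NS libraries, all BRM libraries lay below them, and double libraries overlapped NS. The log2 fold change was 0.89 ± 0.22 for BRG1 (1.85-fold), -1.10 ± 0.25 for BRM (a 2.14-fold decrease) and 0.26 ± 0.22 for double. Both single-hairpin directions were seen within each replicate set, at 0.79 and 1.05 for BRG1 and -1.48 and -0.57 for BRM.

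The ID genes encode dominant-negative helix-loop-helix proteins and are classical direct targets of BMP-activated SMADs. ID3 (chromosome 1, 23557918 to 23559794, minus strand) was level over the BRG1 libraries. It stood at 227, 223, 227 and 233 CPM in BRG1 libraries, 54.2, 83.2 and 72.8 CPM in BRM, 125, 119, 198 and 174 CPM in double and 117, 108, 81.6 and 61.6 CPM in NS libraries. Neither BRG1 nor double libraries overlapped NS libraries, whereas BRM libraries did. Log2 fold changes were 1.31 ± 0.22 for BRG1, 0.74 ± 0.22 for double and -0.39 ± 0.24 for BRM. The double difference was 0.12 within numbers 1 and 2 and 1.38 within numbers 3 and 4, a difference between sets of -1.26 (adjusted p = 0.0191), and the call was lost without double library 3 or 4 or NS library 3 or 4, at log2 fold changes of 0.55 to 0.69, and in a fit of double and NS libraries alone (0.71).

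ID1 (chromosome 20, 31605283 to 31606515, plus strand) was called in no comparison with NS. It had 378, 323, 394 and 365 CPM in BRG1 libraries, 532, 563 and 381 CPM in BRM, 626, 643, 488 and 589 CPM in double and 621, 580.0, 249.9 and 232 CPM in NS libraries. The NS libraries themselves formed a high pair (numbers 1 and 2) and a low pair (numbers 3 and 4). BRG1 libraries therefore lay below NS in the first pair (log2 fold change -0.78) and above it in the second (0.66), a difference between sets of -1.43 (adjusted p = 0.00759). Over all libraries the log2 fold change was -0.20 ± 0.29 for BRG1.

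ID2 (chromosome 2, 8678845 to 8684453, plus strand) had the same low NS pair. It stood at 350.3, 361, 162 and 159 CPM in BRG1 libraries, 305, 356 and 156 CPM in BRM, 376, 372, 345 and 231 CPM in double and 267, 256, 89.6 and 75.0 CPM in NS libraries. The ranges of the groups overlapped, but each BRG1 and each double library exceeded the NS library of its own number. The log2 fold change was 0.58 ± 0.43 for BRG1 and 0.94 ± 0.43 for double, and with the replicate block it was 0.68 and 1.16 with both called. Exons of ID2 overlap those of an antisense gene, ID2-AS1. Without a stated strand setting, reads within the shared bases cannot be told apart, and the length shared is not given here.

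SMAD6 (chromosome 15, 66702228 to 66782848, plus strand) encodes an inhibitory SMAD that is itself switched on by BMP signals and damps them. Its level was 41.0, 40.0, 25.1 and 23.8 CPM in BRG1 libraries, 47.3, 56.8 and 35.7 CPM in BRM, 69.9, 66.0, 53.3 and 63.8 CPM in double and 47.4, 40.8, 16.7 and 15.6 CPM in NS libraries. The 4 double libraries were above all NS libraries, while the single-hairpin groups overlapped NS. The log2 fold change in double libraries was 1.07 ± 0.33, with 0.62 within numbers 1 and 2 and 1.86 within numbers 3 and 4 (difference between sets adjusted p = 0.00588). The call was lost when any 1 double library, NS library 3 or NS library 4 was left out, at log2 fold changes of 0.85 to 1.10, and in a fit of double and NS libraries alone (1.03).

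**Figure D2:**
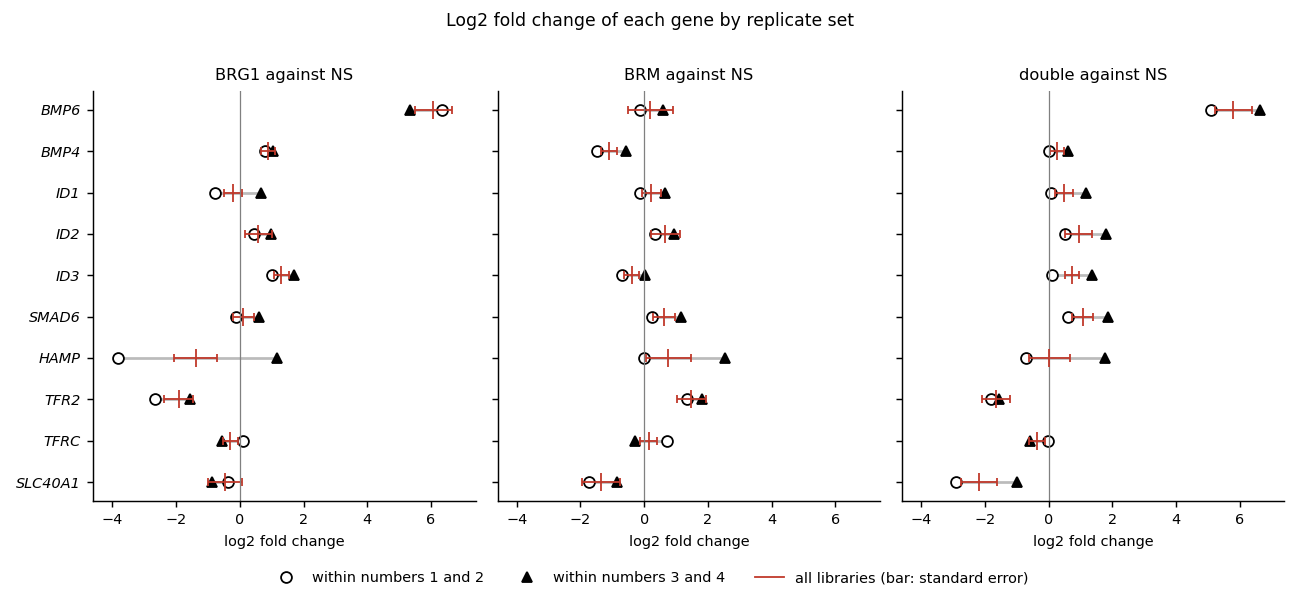
Log2 fold change against NS (horizontal axis) of the 10 genes for the BRG1, BRM and double groups, within libraries numbered 1 and 2 (open circles), within those numbered 3 and 4 (filled triangles) and over all libraries (red bars with standard errors). BMP6 is far to the right in both sets for BRG1 and double, TFR2 keeps its side in all panels, and HAMP in the BRG1 panel spans -3.83 and 1.17.

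HAMP encodes hepcidin (chromosome 19, 35280716 to 35285143, plus strand) and reads out both BMP and interleukin-6 signals. The 250 bases before its start are shown because they hold the letters of known response sites of both kinds. The window is chr19:35282278-35282527 on the plus strand (RefSeq, GRCh38.p14), and capitals mark GGCGCC, the core of a BMP response element, 105 to 100 bases before the start, and TTCTTGGAA, a match to the STAT pattern TTCNNNGAA, 93 to 85 bases before it.
HAMP: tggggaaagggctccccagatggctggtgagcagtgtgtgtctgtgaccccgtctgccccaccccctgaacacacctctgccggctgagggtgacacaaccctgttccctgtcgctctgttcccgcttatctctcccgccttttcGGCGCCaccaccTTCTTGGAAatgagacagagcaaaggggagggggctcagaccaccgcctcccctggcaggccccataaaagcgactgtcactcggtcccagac
Both patterns are palindromes, so a search covers both strands, and they do not overlap here. Of 35116 such windows of all genes, 16.4% held GGCGCC and 6.57% held TTCNNNGAA. Windows were found for 9 of the 10 genes (11 windows), and GGCGCC was also present before BMP4 and TFRC, and TTCNNNGAA before ID3. The AP-1 pattern TGANTCA, in 6.57% of all windows, was before none of the 9. A match of letters describes the window and is not a site.

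HAMP transcripts stood at 14.9, 13.5, 83.7 and 69.0 CPM in BRG1 libraries, 196, 208 and 199 CPM in BRM, 109, 141, 78.6 and 154 CPM in double and 192, 213, 44.7 and 23.8 CPM in NS libraries. BRM libraries were even, while NS libraries split into a high pair and a low pair, and BRG1 libraries split the other way round. The direction of the BRG1 difference therefore turned with the set, with a log2 fold change of -3.83 within numbers 1 and 2 and 1.17 within numbers 3 and 4. That difference between sets was -5.00 (adjusted p = 0.00103, edgeR), where 2.49% of all genes showed one for BRG1. Over all libraries the log2 fold change was -1.39 ± 0.67 and was not called, although BMP6 was higher in every one of the same BRG1 libraries.

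For BRM the log2 fold change of HAMP was 0.76 ± 0.70 over all libraries, -0.0032 within numbers 1 and 2 and 2.55 for the single BRM library numbered 3 (difference between sets -2.55, adjusted p = 0.0295, background 2.26%). For double it was 0.03 ± 0.65 over all libraries, -0.70 within numbers 1 and 2 and 1.78 within numbers 3 and 4 (difference between sets -2.48, adjusted p = 0.0126, background 3.71%). Mitochondrial transcript shares differed between the same sets, as given above, and their part in the HAMP result was not tested.

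TFR2 encodes transferrin receptor 2 (chromosome 7, 100620416 to 100642779, minus strand), made mainly in hepatocytes. It had 3.27, 4.86, 10.2 and 14.2 CPM in BRG1 libraries, 56.9, 71.4 and 129 CPM in BRM, 7.76, 6.88, 7.45 and 17.7 CPM in double and 26.7, 24.2, 39.5 and 33.1 CPM in NS libraries. BRG1 and double libraries lay below all NS libraries and BRM libraries above them, with no overlap. Log2 fold changes were -1.92 ± 0.44 for BRG1 (a 3.79-fold decrease), 1.47 ± 0.46 for BRM (2.78-fold) and -1.63 ± 0.44 for double. Each direction was the same within both sets, at -2.66 and -1.57 for BRG1, 1.34 and 1.83 for BRM and -1.79 and -1.55 for double. The BRM call was the least stable of these, and it held in 12 of 25 fits, the one reported included. It was lost with DESeq2 size factors, with no filter on low counts, and without any 1 NS library, BRM library 2 or 3, BRG1 library 2 or 3, or double library 1, 2 or 3, at log2 fold changes of 1.02 to 1.61.

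SLC40A1 encodes ferroportin, the only known iron exporter of mammalian cells (chromosome 2, 189560579 to 189583758, minus strand). It stood at 67.3, 80.7, 15.01 and 17.0 CPM in BRG1 libraries, 23.5, 33.2 and 16.3 CPM in BRM, 14.6, 10.5, 18.6 and 10.9 CPM in double and 99.8, 90.5, 28.4 and 30.3 CPM in NS libraries. All double libraries were below all NS libraries, while the single-hairpin groups overlapped NS. Log2 fold changes were -2.19 ± 0.57 in double libraries (a 4.55-fold decrease), -1.36 ± 0.61 in BRM and -0.47 ± 0.54 in BRG1 libraries. The decrease in double libraries was larger within numbers 1 and 2 (-2.92) than within numbers 3 and 4 (-0.98), and the difference between sets was -1.93 (adjusted p = 0.00798).

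TFRC encodes transferrin receptor 1, the main route of transferrin iron into cells (chromosome 3, 196027183 to 196082189, minus strand). It had 299.6, 346, 352 and 458 CPM in BRG1 libraries, 434, 571 and 479 CPM in BRM, 329, 274, 378 and 403 CPM in double and 308, 299.6, 557 and 625 CPM in NS libraries. The groups overlapped, and NS spanned nearly the whole range. Its log2 fold change was -0.30 ± 0.24 for BRG1, 0.15 ± 0.26 for BRM and -0.37 ± 0.24 for double, none of them called.

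SLC40A1 and TFRC carry iron-responsive elements, RNA hairpins by which the iron regulatory proteins (the products of ACO1 and IREB2) block translation when the element lies before the coding sequence and protect the RNA when it lies after it. The elements are shown beside those of the ferritin genes because position, not sequence alone, separates the responses. Each is 30 bases of GENCODE v29 transcript sequence (GRCh38), in DNA letters, with the loop CAGTGN in capitals. The FTH1 element is at chr11:61967573-61967602 (minus strand), that of FTL at chr19:48965335-48965364 (plus) and that of SLC40A1 at chr2:189580660-189580689 (minus), all in 5′ untranslated regions. Elements were found by a strict pattern of a C, a paired stem and the loop, so elements of another form would be missed. It also matched 1 place each in the 3′ untranslated regions of ACVR2B and TF, not shown. The 4 TFRC elements it matched are in the 3′ untranslated region of TFRC at chr3:196050978-196051007, chr3:196050574-196050603, chr3:196050509-196050538 and chr3:196050462-196050491 (minus), printed below in that order.
FTH1: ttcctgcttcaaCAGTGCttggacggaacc
FTL: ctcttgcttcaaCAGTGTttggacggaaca
SLC40A1: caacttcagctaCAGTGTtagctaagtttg
TFRC first: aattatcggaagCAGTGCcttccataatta
TFRC next: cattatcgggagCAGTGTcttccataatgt
TFRC next: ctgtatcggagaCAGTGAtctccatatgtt
TFRC last: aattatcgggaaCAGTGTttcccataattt
FTH1 and FTL encode the ferritin heavy and light chains, and FTH1 differed between the single knockdowns. FTH1 stood at 1264 ± 306 CPM in BRG1 libraries (SD, n = 4), 6337 ± 1477 in BRM (SD, n = 3), 2527 ± 444 in double (SD, n = 4) and 2744 ± 757 in NS libraries (SD, n = 4). It fell after BRG1 depletion (log2 fold change -1.12 ± 0.26, adjusted p = 0.00576) and rose after BRM depletion (1.21 ± 0.27, adjusted p = 0.0088), although the second call was lost without BRM library 2. The BRG1 decrease was larger within numbers 1 and 2 (-1.75) than within numbers 3 and 4 (-0.46). FTL, named for its element and not for its values, had log2 fold changes of -0.87 ± 0.32 for BRG1 (adjusted p = 0.0681, and 0.00507 with the replicate block), 0.27 ± 0.34 for BRM and -0.15 ± 0.32 for double. Ferritin genes have many processed copies, and FTH1 exons overlap BEST1, so these levels depend on how shared reads were assigned. Only transcript levels were measured, and translation, on which the 5′ elements act, was not.

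Set against each other, BRG1 and BRM libraries differed in 5 of the 10 genes (background 33.9%), and in 5 with the replicate block (background 49.4%), where TFRC was called and HAMP was not. The BRG1 minus BRM log2 difference was 5.89 ± 0.66 for BMP6, 1.99 ± 0.26 for BMP4, 1.70 ± 0.25 for ID3, -3.40 ± 0.48 for TFR2 (a 10.5-fold difference) and -2.15 ± 0.71 for HAMP. The call of HAMP was also lost without BRG1 library 1 or 2, without any 1 BRM library, or with no filter on low counts, at log2 differences of -2.17 to -1.84. For TFRC the difference was -0.44 ± 0.26, and -0.59 with the block.

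Double and BRM libraries differed in 4 of the 10 genes (background 19.1%). BMP6, BMP4 and ID3 were higher in double libraries, by 5.61 ± 0.65, 1.36 ± 0.25 and 1.13 ± 0.24 on the log2 scale, and TFR2 was lower, at -3.11 ± 0.48. SMARCA4 itself was called higher in double than in BRG1 libraries (0.73 ± 0.16 on the log2 scale), without overlap. The comparison of these groups and the test of additivity below are therefore not at equal depletion of the BRG1 transcript. Double and BRG1 libraries differed in 0 of the 10 genes (edgeR; background 10.8%). Of the 10, 5 had an unadjusted p under 0.05, 3 were called by DESeq2 and 0 by limma-voom. The largest log2 differences there, double minus BRG1, were -1.72 ± 0.56 for SLC40A1 and 1.41 ± 0.67 for HAMP, both of which differed between the sets. SLC40A1 was -2.55 within numbers 1 and 2 and -0.11 within numbers 3 and 4, and HAMP was 3.13 and 0.60. The test of departure from additivity (the double effect less the sum of both single effects, log2 scale) called 0 of the 10 genes (edgeR; background 0.499%), with 0 at an unadjusted p under 0.05 and 0 by DESeq2 or limma-voom. That departure differed between the sets for HAMP (5.08, adjusted p = 0.0197), beside 0.0479% of all genes.

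Ordered by mean level, the groups ran BRG1, double, BRM, NS for BMP6, with a gap between double and BRM and overlap within each pair. For BMP4 the order was BRG1, double, NS, BRM, with double and NS overlapping. For ID3 it was BRG1, double, NS, BRM, with only NS and BRM overlapping, and for TFR2 it was BRM, NS, double, BRG1, with only double and BRG1 overlapping. For HAMP the order was BRM, double, NS, BRG1, where each group overlapped the next except BRM and double, and NS libraries reached into the BRM range. Neighbouring groups overlapped throughout for ID1, ID2, SMAD6, TFRC and SLC40A1.

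The wider pathway was read from 10 lists of 110 genes, of which 86 passed the filter. The lists held ligands, receptors, antagonists, SMAD proteins, other targets, hepcidin regulators, and genes of iron and heme uptake, storage, sensing and use. They were chosen with earlier results of these data known, so p-values of list and marker genes in this report are given as descriptions. After BRG1 depletion 12 of the 86 rose and 11 fell. After BRM depletion 15 rose and 4 fell, and in double libraries 14 rose and 4 fell (edgeR, adjusted over all genes). The shares of all genes called in these comparisons were 22.5%, 13.9% and 21.6%, so the BRG1 and double counts were near the background. With the replicate block the number called in double libraries was 29 (background 35.6%). Their median log2 fold change was -0.07 for BRG1, 0.09 for BRM and 0.01 for double. In the direct comparison, 16 of the 86 were higher and 24 lower in BRG1 than in BRM libraries, beside 33.9% of all genes called. The counts per list below stand beside the shares of 22.5%, 13.9% and 21.6% for BRG1, BRM and double. Nothing is read from those counts, since each list is small.

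**Figure D3:**
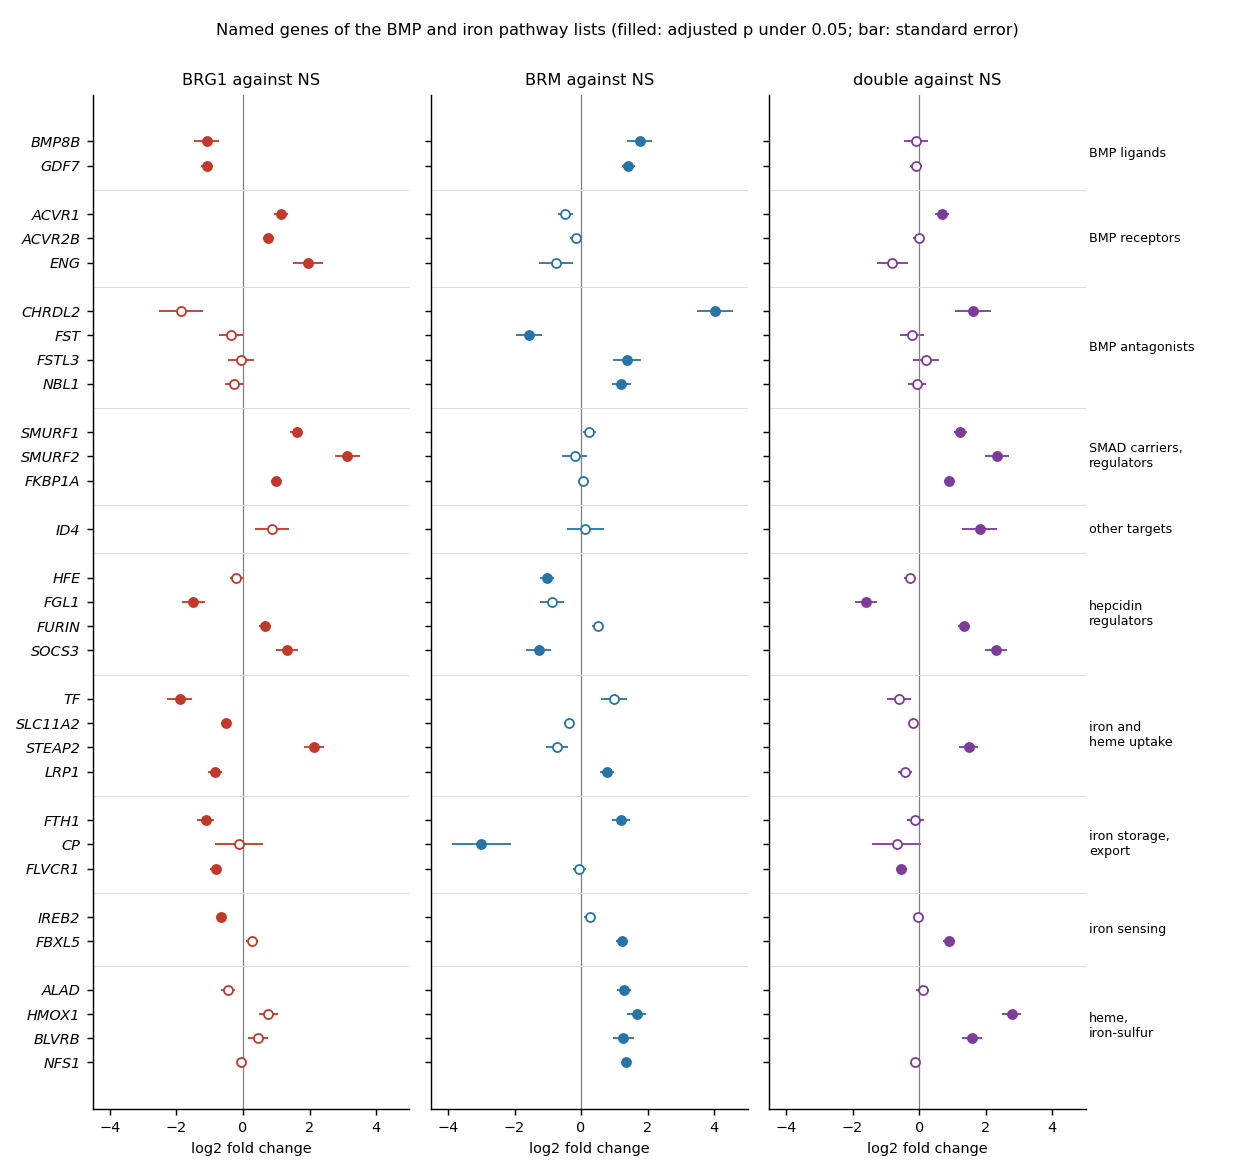
Log2 fold change against NS, with standard errors, of the named genes of the 10 pathway lists for the BRG1, BRM and double groups, with filled points where the adjusted p was under 0.05. GDF7, BMP8B, LRP1 and FTH1 lie on opposite sides of 0 in the BRG1 and BRM panels, and SMURF1, SMURF2 and FKBP1A are right of 0 and filled in the BRG1 and double panels.

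Of the other BMP ligands, 3 of 12 were expressed enough to test. GDF7, whose product belongs to the BMP family, averaged 8.94 ± 0.323 CPM in BRG1 libraries (SD, n = 4) and 50.4 ± 7.84 in BRM libraries (SD, n = 3), against 18.8 ± 2.49 in NS libraries (SD, n = 4). It fell after BRG1 depletion (log2 fold change -1.07 ± 0.19, adjusted p = 0.000891) and rose after BRM depletion (1.42 ± 0.19, adjusted p = 0.000381), and it did not pass in double libraries (-0.10 ± 0.18, adjusted p = 0.752). BMP8B, at 0.514 ± 0.179 CPM in BRG1 and 3.74 ± 1.23 in BRM libraries, against 1.11 ± 0.355 in NS libraries, had log2 fold changes of -1.09 ± 0.37 and 1.76 ± 0.38 (adjusted p = 0.0485 and 0.00659). Its BRG1 call was lost without any 1 of BRG1 libraries 1, 3 and 4 and NS libraries 1, 2 and 3.

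Of 11 receptor genes tested, 3 rose and 0 fell after BRG1 depletion, 0 were called after BRM depletion and 1 rose in double libraries. ACVR1, which encodes the type I receptor ALK2 used by BMP6, rose to 37.6 CPM in BRG1 libraries, against 17.1 CPM in NS libraries (log2 fold change 1.13 ± 0.21, adjusted p = 0.00148). In double libraries it was 0.68 ± 0.21 (adjusted p = 0.0311), a call lost without double library 1, 2 or 3 or NS library 2, 3 or 4. The type II receptor gene ACVR2B and the coreceptor gene ENG rose after BRG1 depletion by 0.76 ± 0.17 and 1.96 ± 0.45 (adjusted p = 0.00408 and 0.00588).

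Of 8 secreted antagonists tested, 0 were called after BRG1 depletion, 3 rose and 1 fell after BRM depletion, and 1 rose in double libraries. CHRDL2, a chordin-like protein, stood at 0.0562 CPM in BRG1, 3.71 in BRM, 0.707 in double and 0.217 in NS libraries, with a log2 fold change of 4.02 ± 0.55 for BRM (adjusted p = 0.000379). The CHRDL2 call in double libraries (1.62 on the log2 scale, adjusted p = 0.0434) was lost without any 1 of 10 libraries. For BRG1 it was -1.86 ± 0.67 (adjusted p = 0.0602, and 0.0487 with the block). CHRDL2 ran from 0 to 0.0983 CPM in BRG1 libraries and from 0.160 to 0.279 CPM in NS libraries. Its folds against NS therefore rest on very low levels. FST, which encodes follistatin, fell after BRM depletion (-1.57 ± 0.40, adjusted p = 0.0184), a call lost without BRM library 2. NBL1 and FSTL3 rose there by 1.21 ± 0.29 and 1.38 ± 0.42 (adjusted p = 0.014 and 0.0424). NBL1 lost its call without BRM library 2 or 3 and shares exons with MINOS1, and FSTL3 lost its call without any 1 of 10 libraries.

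Among 9 genes of SMAD proteins and their regulators, SMURF1, SMURF2 and FKBP1A rose in BRG1 and in double libraries and 0 were called in BRM libraries. SMURF1 and SMURF2 encode ubiquitin ligases that mark SMADs and BMP receptors for degradation, and FKBP1A encodes FKBP12, which holds type I receptors inactive. SMURF2 stood at 554, 557, 215 and 206 CPM in BRG1 libraries, 47.6, 36.9 and 29.5 in BRM, 245, 222, 258 and 153 in double and 55.5, 53.4, 31.3 and 33.8 CPM in NS libraries. As with BMP6, every BRG1 and double library lay above every BRM and NS library. Its log2 fold change was 3.14 ± 0.37 for BRG1 (adjusted p = 4.36e-05) and 2.34 ± 0.36 for double (adjusted p = 0.000345). SMURF1 rose by 1.62 ± 0.19 for BRG1 and 1.24 ± 0.19 for double (adjusted p = 4.88e-05 and 0.000378). FKBP1A rose by 1.001 ± 0.15 and 0.89 ± 0.15 in these groups (adjusted p = 0.000366 and 0.000842). Exons of SMURF2 overlap CEP95 and those of SMURF1 overlap TRRAP on the other strand. Reads within the shared bases cannot be told apart without a strand setting, and the lengths shared are not given here. Exons of FKBP1A overlap the protein-coding gene AL136531.2 on the same strand. Of other genes named, NFS1 overlaps AL109827.1 on the same strand and ROMO1 on the other. BMP8B, CP and FBXL5 overlap PPIE, HPS3 and FAM200B on the other strand.

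Of 5 further BMP targets tested, ID4 was the gene called. It rose in double libraries by 1.82 ± 0.52 (adjusted p = 0.0213, lost without any 1 of double libraries 1, 2 and 3 and NS libraries 3 and 4). For BRG1 it was 0.88 ± 0.51 (adjusted p = 0.253, and 0.0267 with the block).

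Of 12 hepcidin regulators tested, 3 rose and 2 fell after BRG1 depletion, 1 rose and 2 fell after BRM depletion, and 3 rose and 2 fell in double libraries. FURIN, a protease that cuts BMP precursors and hemojuvelin, rose by 0.67 ± 0.18 for BRG1 and 1.34 ± 0.18 for double (adjusted p = 0.0133 and 0.000131). SOCS3, a feedback inhibitor of interleukin-6 signalling, rose by 1.33 ± 0.32 and 2.32 ± 0.33 in these groups (adjusted p = 0.0081 and 0.000186) and fell after BRM depletion (-1.28 ± 0.38, adjusted p = 0.0369, lost without BRM library 1 or 3 or NS library 1 or 4). FGL1, whose product binds BMP6 and lowers hepcidin in mouse, fell by 1.49 and 1.60 on the log2 scale in BRG1 and double libraries (adjusted p = 0.00522 and 0.00352). HFE, the gene mutated in the commonest hereditary hemochromatosis, fell after BRM depletion (-1.02 ± 0.21, adjusted p = 0.00471). The hemojuvelin gene HJV held at most 3 counts in any library, averaged 0.0551 CPM and did not pass the filter.

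TMPRSS6 encodes matriptase-2, which lowers hepcidin by cutting hemojuvelin. It is named here after its values were seen, so its p-values are descriptions and not tests. It stood at 3.16, 2.53, 1.39 and 1.97 CPM in BRG1 libraries, 14.8, 15.3 and 15.6 in BRM, 1.91, 1.55, 1.55 and 4.12 in double and 7.87, 8.33, 3.69 and 2.88 CPM in NS libraries. BRM libraries lay above all others, and BRG1 and double libraries overlapped NS. It fell in BRG1 libraries (log2 fold change -1.33 ± 0.40, adjusted p = 0.0273) and double libraries (-1.32 ± 0.40, adjusted p = 0.0298) and rose in BRM libraries (1.42 ± 0.41, adjusted p = 0.0342). Leaving out BRG1 library 3 or 4 or NS library 1 or 2 ended the first call, any 1 of 5 libraries (double 1, 2 and 3, NS 1 and 2) the second and any 1 of 8 the third.

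**Figure D4:**
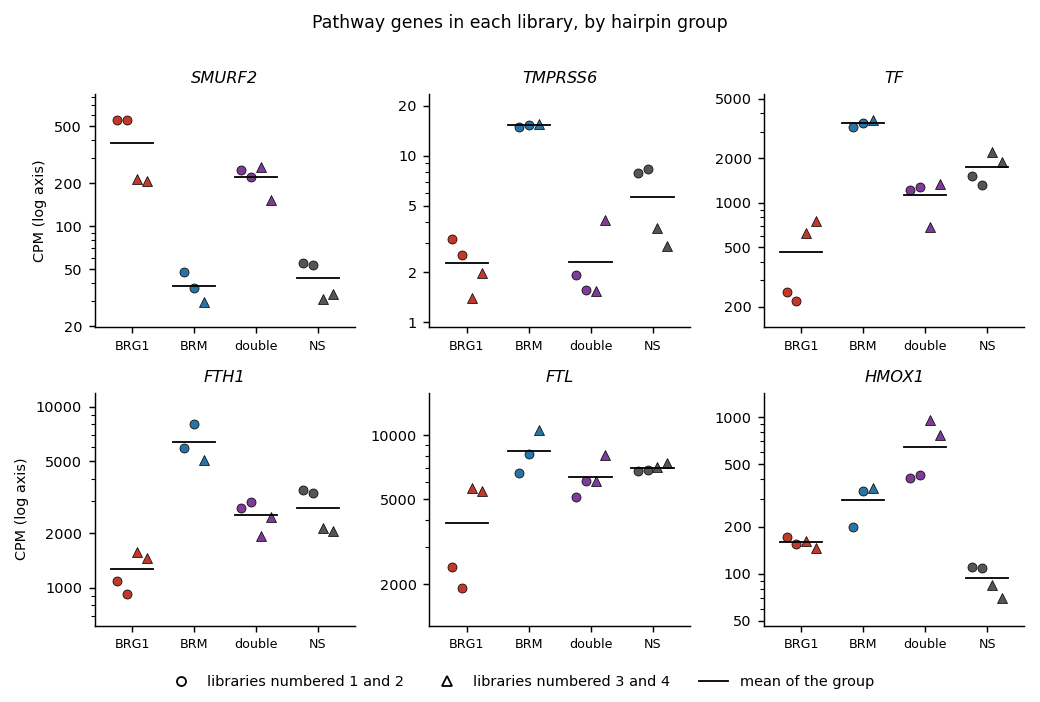
Level in CPM (log axis) of 6 pathway genes in every library of the BRG1, BRM, double and NS groups, with circles for libraries numbered 1 and 2, triangles for those numbered 3 and 4 and a line at the group mean. SMURF2 is high in all BRG1 and double libraries, the group means of TF and FTH1 are lowest in BRG1 and highest in BRM libraries, and every double library is above all others for HMOX1.

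Of 10 iron and heme uptake genes tested, 1 rose and 4 fell after BRG1 depletion, 1 rose after BRM depletion and 1 rose in double libraries. TF, which encodes the plasma iron carrier transferrin, stood at 250.1, 217, 627 and 759 CPM in BRG1 libraries, 3260, 3443 and 3583 in BRM, 1210, 1280, 685 and 1329 in double and 1522, 1310, 2196 and 1881 CPM in NS libraries. It fell after BRG1 depletion (log2 fold change -1.90 ± 0.37, adjusted p = 0.00215), and for BRM it was 0.99 ± 0.39 (adjusted p = 0.109). TF is also one of the hepatocyte markers, and ALB also fell after BRG1 depletion, by 1.92 on the log2 scale (adjusted p = 0.00609). STEAP2, a ferrireductase, moved the other way and rose by 2.13 ± 0.30 for BRG1 and 1.48 ± 0.30 for double (adjusted p = 0.000193 and 0.00245). LRP1, a receptor for hemopexin-bound heme, fell in BRG1 libraries (-0.84 ± 0.20, adjusted p = 0.00763) and rose in BRM libraries (0.78 ± 0.21, adjusted p = 0.0257, lost without BRM library 2 or 3 or NS library 1, 2 or 3). SLC11A2, the iron importer DMT1, fell after BRG1 depletion (-0.51 ± 0.14, adjusted p = 0.0165), a call lost without NS library 3. Exons of TF overlap SRPRB and a TF pseudogene, and those of LRP1 overlap STAT6.

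In storage and export, 2 of 7 genes tested fell after BRG1 depletion, FTH1 and the heme exporter gene FLVCR1 (-0.82 ± 0.17, adjusted p = 0.00301). CP, which encodes the ferroxidase ceruloplasmin that assists ferroportin, fell after BRM depletion to 10.4 ± 2.54 CPM in BRM libraries (SD, n = 3), against 82.8 ± 55.6 CPM in NS libraries (SD, n = 4; log2 fold change -3.00 ± 0.89, adjusted p = 0.0366), a call lost without any 1 BRM library, NS library 3 or NS library 4. Of 3 iron sensing genes, IREB2, one of the iron regulatory proteins, fell after BRG1 depletion (-0.66 ± 0.16, adjusted p = 0.00725). FBXL5, the ligase subunit that removes it when iron is plentiful, rose after BRM depletion (1.22 ± 0.18, adjusted p = 0.000696) and in double libraries (0.89 ± 0.17, adjusted p = 0.00192).

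Of 18 heme and iron-sulfur genes tested, 2 rose after BRG1 depletion, 6 rose after BRM depletion, and 3 rose and 1 fell in double libraries. HMOX1, the heme oxygenase that frees iron from heme, stood at 173, 154, 162 and 146 CPM in BRG1 libraries, 199, 336 and 354 in BRM, 409, 425, 958 and 775 in double and 111, 108, 84.4 and 70.0 CPM in NS libraries. No group overlapped NS. It rose in double libraries by 2.78 ± 0.29 (adjusted p = 2.04e-05) and in BRM libraries by 1.67 ± 0.30 (adjusted p = 0.00206), and for BRG1 it was 0.76 ± 0.28 (adjusted p = 0.0623, and 0.0419 with the block). BLVRB, a biliverdin reductase that acts after heme oxygenase, rose in double libraries by 1.59 ± 0.30 (adjusted p = 0.00164). NFS1, the sulfur donor of iron-sulfur cluster assembly, and ALAD, an enzyme of heme synthesis, rose in BRM libraries by 1.35 ± 0.13 and 1.28 ± 0.22 (adjusted p = 4.3e-05 and 0.00148). ALAD was at -0.45 for BRG1 (adjusted p = 0.136, and 0.0344 with the block). NFS1 was at -0.07 ± 0.12 and -0.12 ± 0.12 in BRG1 and double libraries.

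The genes whose levels followed BMP6, HAMP and TFR2 most closely over the 15 libraries were found by Pearson correlation of log2 CPM among 11904 genes, as a description in which all values share libraries and group structure. For BMP6 they were PARD6B (0.986), SP6, DOCK9, MYO1F and TLR6, and for TFR2 they were NEU4 (0.987), EPHA1, CCDC85C, PIPOX and ITIH3. For HAMP they were FRAT2 (0.923), NPC2, TNFRSF11A, SERF2 and TNFAIP8L3. With each library centred on its replicate set, 2 of the 5 genes remained among the closest 5 for BMP6, 2 for TFR2 and 1 for HAMP.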

How the data were processed

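Processed RNA-seq files of 15 HepG2 libraries were analysed. The deposited table holds whole-number counts per gene symbol, not normalized between libraries. The submitters' processing notes name kallisto, DESeq2 and the build GRCh38. Their versions, the transcript set and the strand setting were not given in the sources used here. The authors' comparison tables hold, per the file headers, a mean normalized signal, log2 fold changes and standard errors, a Wald score and p-values (raw and adjusted) per gene, used here to count the authors' calls among the 10 genes (the largest log2 difference from the values here was 0.0416).

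Counts were used as deposited. Genes passing filterByExpr (14621) went into edgeR 4.0.16 (R 4.3.3; robust quasi-likelihood F test, TMM factors, group means of all 15 libraries in 1 fit, two-sided), with Benjamini-Hochberg adjustment over all genes tested and a threshold of 0.05. Contrasts (7) set the knockdowns against NS and against each other, and tested additivity. Standard errors are the size of the fold change over the square root of F. CPM use TMM-scaled totals, and log2 CPM a prior count of 2. Differences between replicate sets (numbers 1 and 2 minus numbers 3 and 4) came from a fit of group by set, in which the BRM group has 1 library numbered above 2. No interval or limit for counting error is given, since reads were counted without molecular identifiers. The fits were tested on simulated data.

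The 10 genes, the pathway and marker lists and the tests were chosen with earlier results of these data known. From each list, up to 4 genes called in at least 1 comparison with NS and averaging at least 1 CPM were named, by smallest adjusted p. TMPRSS6 and FTL are named in addition. Of 110 list entries all were in the table, 1 by an older symbol. Same-numbered libraries were taken to pair where every correlation of deviations from the group means exceeded 0.1, which held between BRG1 and NS libraries (0.427 to 0.565), between double and NS libraries (0.179 to 0.454) and between BRG1 and BRM libraries (0.104 to 0.532). It did not hold for BRM and NS, double and BRG1 or double and BRM (lowest 0.0733, 0.0578 and 0.0133). Of 35012 symbols, 33662 matched GENCODE v29, the source of gene positions and of the iron-responsive elements, and promoter windows are from RefSeq.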

Additional observations from a re-analysis of the deposited data

Results flagged for a closer look

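A pair of libraries stood apart from the others of their group in Dixon's test, among 30 groups tested, where chance flags about 5% of groups. They were double library 3 for BMP6 (39.7 CPM) and double library 4 for TFR2 (17.7 CPM).

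Differences against NS that were not the same in libraries numbered 1 and 2 as in those numbered 3 and 4 were tested as an interaction of group and set in edgeR, and the values below are the log2 fold change within numbers 1 and 2 minus that within numbers 3 and 4. HAMP had such differences of -5.00 for BRG1, -2.55 for BRM and -2.48 for double. ID1 had -1.43 for BRG1 and -1.08 for double. For double against NS the values were -1.29 for ID2, -1.26 for ID3, -1.24 for SMAD6 and -1.93 for SLC40A1. Between double and BRG1 libraries the values were -2.54 for BMP6, 2.53 for HAMP and -2.45 for SLC40A1, and for the departure from additivity the value was 5.08 for HAMP.

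Among the pathway and marker genes, FST had -1.48 for BRG1 and -1.12 for BRM, FSTL3 had -2.02 for BRM and -2.28 for double, and NBL1 had -1.38 for double. The values for BRG1 were -1.45 for FGL1, -1.29 for FTH1 and -1.63 for ALB, and that for double was -1.56 for HMOX1. The labels do not say what separates the sets, so a batch and a difference in the cells cannot be told apart. The split itself was seen in these libraries, so all these differences between sets are descriptions and not tests.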

How the results depend on the processing

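Each call was taken through 25 fits, namely the one reported, 9 others and those without each of the 15 libraries in turn. The calls of BMP6 (BRG1 and double, each against NS and against BRM), BMP4 and ID3 (BRG1 against NS, BRG1 and double against BRM), TFR2 (BRG1 and double, each against NS and against BRM) and SLC40A1 (double against NS) kept direction and call in all 25. Within numbers 3 and 4 the log2 difference was reversed for BMP6 between double and BRG1 (1.31), and for ID1 (0.66), HAMP (1.17) and FST (0.49) between BRG1 and NS, and within numbers 1 and 2 it was reversed for FSTL3 between double and NS (-0.88).

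The counts in this paragraph and the next come without the share of all genes called in each fit. Nothing is read from them, since that share changed with the fit. For BRG1 it went from 22.5% to 36.4% with the replicate block. The count of the 10 genes called after BRG1 depletion (4) was 10 within numbers 3 and 4. After BRM depletion (2) it was 1 with DESeq2 size factors or no filter on low counts, and 5 with the set as a covariate or within either set. In double libraries (5) it was 10 within numbers 3 and 4 and 3 in a fit of double and NS libraries alone. Between BRG1 and BRM (5) it was 8 within numbers 1 and 2. Between double and BRG1 (0) it was 3 by DESeq2, 2 with the replicate block, 4 with the set as a covariate, 7 within numbers 1 and 2, 4 within numbers 3 and 4, and 2 in a fit of those groups alone. For the departure from additivity (0) it was 3 within numbers 1 and 2. Of pathway genes called after BRG1 depletion (23) the count was 36 with the set as a covariate and 37 within numbers 1 and 2. After BRM depletion (19) it was 33 with the replicate block, 38 with the set as a covariate and 37 within numbers 1 and 2. In double libraries (18) it was 29 with the replicate block, 33 with the set as a covariate, 30 within numbers 1 and 2 and 37 within numbers 3 and 4. The cause was not tested.

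Without 1 library the 10 genes gave 4 to 4 calls after BRG1 depletion, 1 to 2 after BRM, 3 to 5 in double, 4 to 5 between BRG1 and BRM, 0 to 1 between double and BRG1, 4 to 4 between double and BRM and 0 to 0 for the departure. The pathway genes gave 19 to 25, 9 to 21 (9 without BRM library 2) and 13 to 19 calls after BRG1, BRM and double depletion. Where numbers were taken to pair the libraries, the replicate block changed some calls among the genes named, beside those given in the report. After BRG1 depletion it added ACO1 and APOA1 (edgeR adjusted p = 0.134 and 0.0529 without it, 0.0152 and 0.00455 with it). Between BRG1 and BRM it added ID4, BLVRB and CD68 and ended the call of CP (adjusted p = 0.0596 with it). Where numbers were not taken to pair, it ended the calls of CP and FSTL3 after BRM depletion (edgeR adjusted p = 0.0535 and 0.059). It added SLC40A1, FURIN, TF, STEAP2, ACO1, ALB, AFP and APOA1 there. Among the 10 genes it also added BMP4 and SMAD6 between double and BRG1 and TFRC between double and BRM. Few BMP6 counts in BRM and NS libraries limit the precision of its folds.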
